A study of Mus musculus with 6 samples.

Results

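The aminoacyl-tRNA synthetases are the enzymes that attach amino acids to tRNAs, and their transcripts were compared between the gastrocnemius of young and of old mice. The 36 genes were chosen by name, 20 encoding cytosolic enzymes or their subunits and 16 encoding mitochondrial enzymes. Of them, 35 were among the 20907 genes tested, a total in which 13846 had a gene symbol and the rest were transcripts named otherwise. The remaining member, Nars2, the mitochondrial asparaginyl-tRNA synthetase, did not rise well above background on any of the arrays. Total RNA of this calf muscle came from males: 3 samples were young, at 13 weeks, and 3 were old, at 25 months. No genotype, strain or treatment was given in the sources used here. The series title describes the old muscle as atrophied by aging. Every sample went onto an array of its own, a single-colour Agilent array with the dye Cy3. Nothing states that the numbered samples came from separate animals, so the p-values rest on a spread between samples that may be technical in part.

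Each synthetase recognises 1 amino acid and the tRNAs that carry its anticodons, apart from Eprs, whose single polypeptide charges tRNAs for both glutamate and proline. Cytosolic synthetases supply the ribosomes that translate nuclear transcripts, and part of them sit together in the multisynthetase complex. The mitochondrial enzymes, encoded in the nucleus and imported, supply the translation of the few respiratory-chain subunits that mitochondrial DNA encodes. Gars and Kars are known to serve both compartments from a single gene and were counted here with the cytosolic enzymes. Uncharged tRNA activates the kinase Gcn2 (Eif2ak4), which phosphorylates eIF2α and raises translation of the transcription factor Atf4, and several cytosolic synthetase genes are known Atf4 targets.

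Values are the log2 of the processed signal minus the 75th percentile of the same array, and a difference is the old mean minus the young mean on that scale. The ages were compared with limma over all genes tested. A gene was called at a Benjamini-Hochberg adjusted p below 0.05. Over all genes, 53 were called (0.254%), 41 of them higher in old muscle (0.196%) and 12 lower (0.0574%). Between 49.9% and 54.8% of spots were well above background and none was saturated. The small number of arrays limits the precision. Old replicate 1 stood apart in its negative-control signal, 61.3 against 51.9 to 55.1 on the other arrays, and in its spike-in slope, 0.840 against 0.925 to 0.941. Old replicates 2 and 3 lay in row 2 of the slide and the other arrays in row 1, so no young array shared their row.

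No synthetase transcript passed the test in either direction, against the 0.254% of all genes that did. The smallest adjusted p was 0.275, for Pars2. The 35 differences ran from -0.70 (Tars2) to 0.69 (Rars), with a median of 0.00, beside a median of -0.06 over all genes tested. The 20 cytosolic members had a median difference of 0.06, with 12 above 0 and 8 below. The 15 mitochondrial members tested had a median of -0.09, with 6 above 0 and 9 below. Below 0 lay 56.9% of all genes, 40.0% of the cytosolic members and 60.0% of the mitochondrial members. The medians of the compartments differed by 0.15, cytosolic minus mitochondrial. The sign of the cytosolic median turned with the scaling: with each array centred on its own median, the median of all genes was -0.20, that of the cytosolic members -0.08 and that of the mitochondrial members -0.23. The difference of 0.15 is a description over genes, which are not replicates of an age.

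The compartments did not separate the ages array by array. After each member was centred on its own mean, the median of the cytosolic members minus that of the mitochondrial members was 0.08, -0.15 and -0.15 on young replicates 1 to 3. It was 0.11, 0.06 and 0.05 on the old arrays. Young replicate 1 thus lay within the range of the old arrays. Leaving out 1 array at a time moved the difference of the medians between 0.11 and 0.23, so its sign did not turn on any of the 6 arrays.

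**Figure D1:**
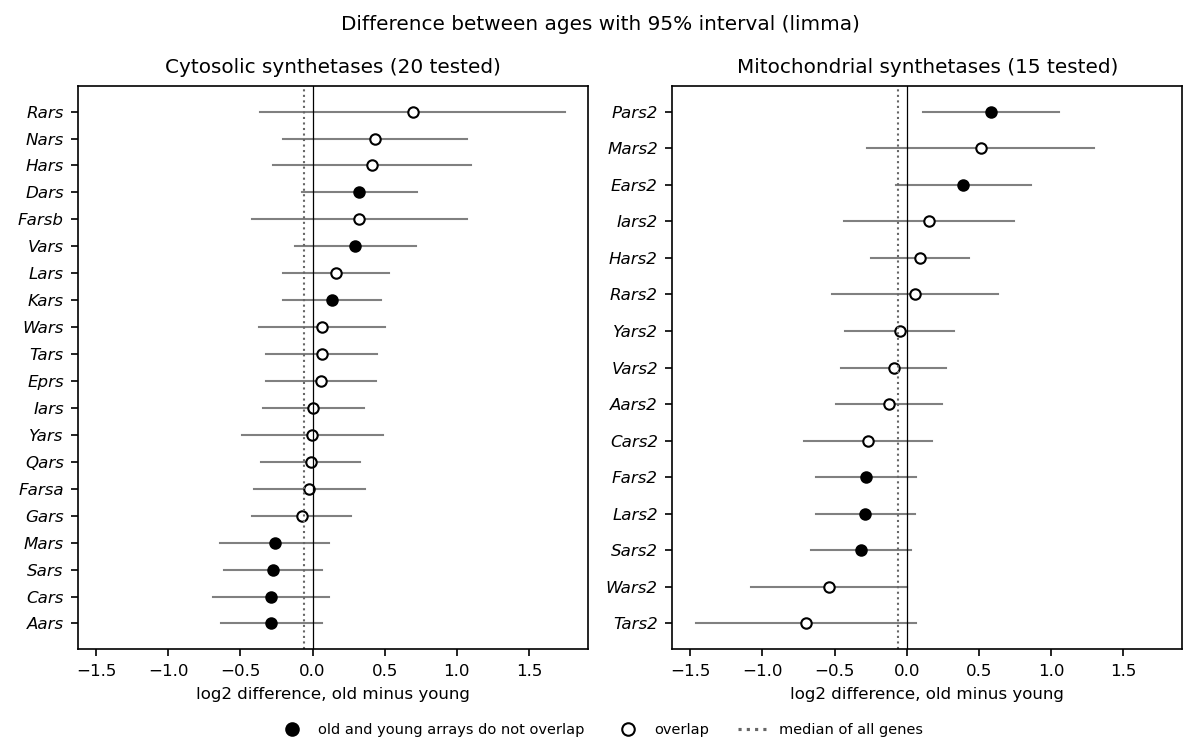
Difference in log2 signal between the ages (x axis, old minus young) for each cytosolic (left, 20) and mitochondrial (right, 15) member tested; points are limma estimates, bars their 95% intervals, filled points members whose old and young arrays do not overlap, and the dotted line the median of all genes. The interval of Pars2 alone excludes 0, and the members lie on both sides of 0 in both panels.

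The 95% interval of the difference lay within a 2-fold change, that is between -1 and 1 on the log2 scale, for 27 members. They were 16 cytosolic and 11 mitochondrial enzymes. The other 8 intervals reached past 1 or -1. Gars, whose interval ran from -0.42 to 0.27, and Qars, the glutaminyl-tRNA synthetase, from -0.36 to 0.33, were among the members with narrow intervals. The interval of Rars, the arginyl-tRNA synthetase, ran from -0.36 to 1.75. At an unadjusted p below 0.05 there was 1 member, Pars2, higher in old muscle. Over all genes, 14.4% passed that threshold, 6.06% higher and 8.38% lower.

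Old and young arrays did not overlap for 12 of the 35 members tested (34.3%), against 21.8% of all genes tested. All old values lay above the young for 5 members, where the background was 7.92%, and below for 7, where it was 13.9%. Among the cytosolic enzymes, Dars, Vars and Kars lay above and Aars, Sars, Cars and Mars below; with median centring the difference of Kars was -0.01 in place of 0.13. Among the mitochondrial enzymes, Pars2 and Ears2 lay above and Sars2, Lars2 and Fars2 below. None of these 12 differences passed the adjusted threshold.

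The 6 cytosolic members with the lowest p are Aars, Dars, Sars, Cars, Vars and Mars. Aars, the alanyl-tRNA synthetase, had log2 signals of 5.25, 5.29 and 5.12 on young replicates 1 to 3 and of 4.99, 4.91 and 4.90 on the old arrays. Every old array lay below every young array, with means of 4.93 ± 0.05 and 5.22 ± 0.09 (SD, n = 3 each). The difference of -0.29 ± 0.15 (SE), a 1.22-fold lower signal in old muscle, did not pass the test (limma adjusted p = 0.424). Sars, the seryl-tRNA synthetase, had signals of 5.57, 5.61 and 5.63 in young and 5.40, 5.34 and 5.25 in old muscle. Its old arrays were also all below the young, by a difference of -0.27 ± 0.14 (limma adjusted p = 0.430).

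Cars, the cysteinyl-tRNA synthetase, had signals of 5.49, 5.68 and 5.50 in young and 5.49, 5.22 and 5.12 in old muscle. Old replicate 1 lay just under the lowest young array and the other old arrays clearly lower, with a difference of -0.29 ± 0.17 (limma adjusted p = 0.478). Mars, the methionyl-tRNA synthetase that also charges the initiator tRNA, had signals of 3.24, 3.10 and 3.10 in young and 2.76, 3.06 and 2.83 in old muscle. Old replicate 2 came close to the young arrays without reaching them, and the difference was -0.26 ± 0.16 (limma adjusted p = 0.486).

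Dars, the aspartyl-tRNA synthetase, ran the other way, with signals of 1.37, 1.47 and 1.25 in young and 1.5, 1.71 and 1.85 in old muscle. All old arrays lay above the young, the lowest of them by little, and the difference was 0.32 ± 0.17, a 1.25-fold higher signal (limma adjusted p = 0.424). Vars, the valyl-tRNA synthetase, had signals of 2.34, 2.45 and 2.39 in young and 2.96, 2.60 and 2.51 in old muscle. Old replicate 1 was the highest array, and without it the difference of 0.30 ± 0.18 (limma adjusted p = 0.480) was 0.16.

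Among the 14 other cytosolic members the differences ran from -0.08 to 0.69. Rars had a difference of 0.69 ± 0.44, Nars, the asparaginyl enzyme, 0.43 ± 0.27, Hars, the histidyl enzyme, 0.41 ± 0.29, and Farsb, the β subunit of the phenylalanyl enzyme, 0.32 ± 0.31. The young arrays of these 4 genes were spread widely. Rars had signals of -0.95, -1.70 and -2.51 in young and -1.32, -1.37 and -0.39 in old muscle. Nars had 3.63, 3.31 and 2.88 in young and 3.79, 3.32 and 4.02 in old muscle. In Rars, Nars, Hars and Farsb young replicate 3 was the lowest of the 6 arrays, and young replicate 1 lay within the range of the old arrays. Without young replicate 3 the differences were 0.30 for Rars, 0.24 for Nars, 0.12 for Hars and 0.08 for Farsb. Without young replicate 1 they were 1.08 for Rars, 0.61 for Nars, 0.66 for Hars and 0.54 for Farsb. Without old replicate 3 they were 0.37, 0.28, 0.32 and 0.20 in the same order.

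The remaining cytosolic members lay close to 0. Kars, the lysyl-tRNA synthetase, had signals of 5.94, 6.03 and 5.98 in young and 6.18, 6.05 and 6.12 in old muscle, with a difference of 0.13 ± 0.14. Its groups did not overlap, but the gap between them was small beside the spread within each. Lars, the leucyl enzyme, had a difference of 0.16 ± 0.15. Tars, Wars and Eprs differed by 0.06, 0.07 and 0.06. Iars and Yars, the isoleucyl and tyrosyl enzymes, both differed by 0.00, Qars by -0.01, Farsa, the α subunit of the phenylalanyl enzyme, by -0.02 and Gars by -0.08.

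Members of the multisynthetase complex were described apart from the other cytosolic enzymes. The 8 complex members Dars, Eprs, Iars, Kars, Lars, Mars, Qars and Rars had a median difference of 0.10, with 6 above 0 and 2 below. The 12 outside the complex had a median of 0.03, with 6 on each side. The structural classes of catalytic domain differed as little. The 18 class I members had a median of 0.00 and the 16 class II members tested 0.02, beside -0.06 over all genes.

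**Figure D2:**
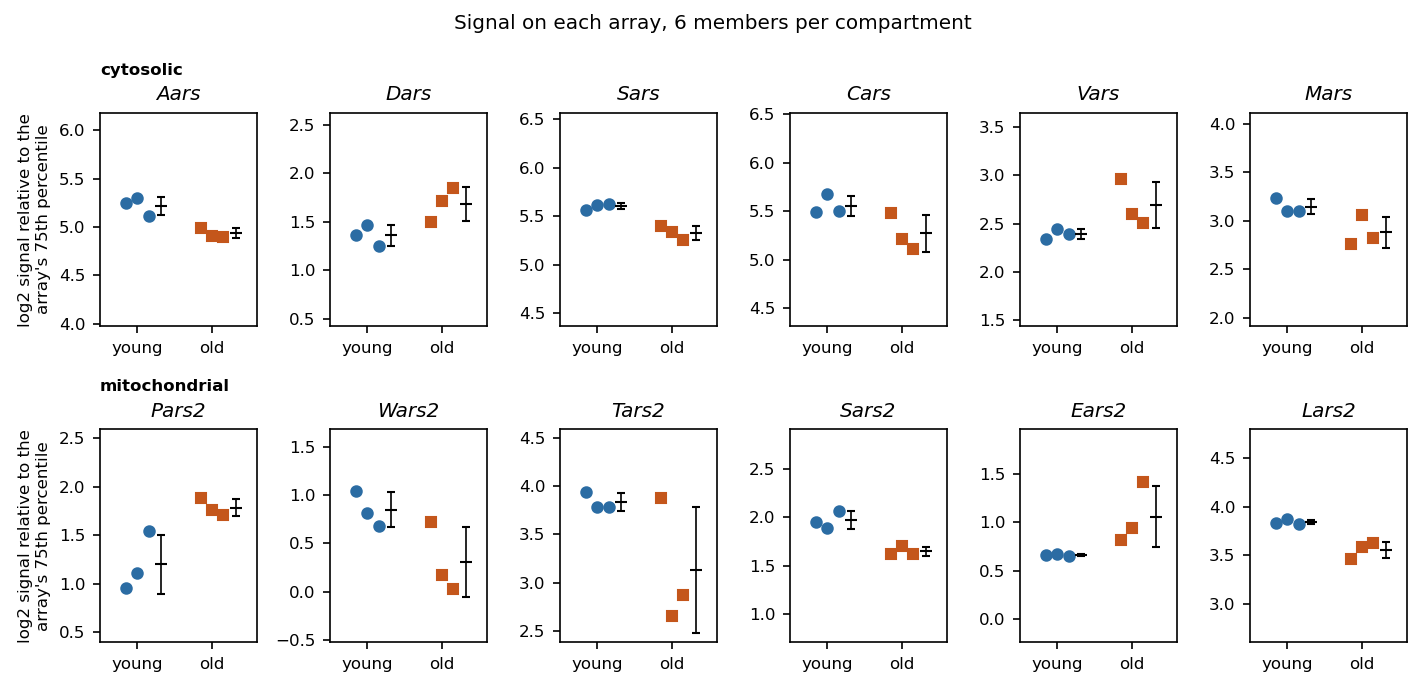
Log2 signal relative to the array's 75th percentile (y axis, the same span in each panel) on the 3 young (circles) and 3 old (squares) arrays for the 6 cytosolic (top) and 6 mitochondrial (bottom) members with the lowest p; bars show the mean and SD of each age. Old arrays lie below the young in Aars, Sars, Cars, Mars, Sars2 and Lars2 and above them in Dars, Vars, Pars2 and Ears2, while Wars2 and Tars2 overlap.

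The 6 mitochondrial members with the lowest p are Pars2, Wars2, Tars2, Sars2, Ears2 and Lars2. Pars2, the prolyl-tRNA synthetase of mitochondria, had log2 signals of 0.95, 1.11 and 1.54 in young and 1.89, 1.76 and 1.71 in old muscle. All old arrays lay above the young, with means of 1.79 ± 0.09 and 1.20 ± 0.30 (SD, n = 3 each). The difference was 0.58 ± 0.20, a 1.5-fold higher signal in old muscle, and it did not pass the adjusted threshold (limma adjusted p = 0.275). Its 95% interval, 0.11 to 1.05, was the sole one among the members to exclude 0. Ears2, the glutamyl enzyme, had signals of 0.66, 0.67 and 0.65 in young and 0.82, 0.93 and 1.41 in old muscle. The old arrays were all higher, old replicate 3 most so, by 0.39 ± 0.20 (limma adjusted p = 0.415). Without old replicate 3 the difference of Ears2 was 0.21.

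Sars2, the mitochondrial seryl enzyme, had signals of 1.95, 1.89 and 2.07 in young and 1.62, 1.70 and 1.62 in old muscle. Its old arrays lay together below the young ones, with a difference of -0.32 ± 0.15, a 1.25-fold lower signal (limma adjusted p = 0.381). Lars2, the leucyl enzyme, had signals of 3.84, 3.87 and 3.83 in young and 3.46, 3.58 and 3.62 in old muscle. The young arrays were nearly equal and the old ones all lower, with a difference of -0.29 ± 0.14 (limma adjusted p = 0.416). Fars2, the phenylalanyl enzyme, showed a similar arrangement, with 5.27, 5.35 and 5.22 in young and 4.93, 5.09 and 4.97 in old muscle. Its difference was -0.28 ± 0.15 (limma adjusted p = 0.427). For serine, the cytosolic and the mitochondrial enzyme were thus both lower on every old array than on any young one, without either passing the test. This pair was picked out after the values were seen. On the probes used, the cytosolic enzyme separated the ages for alanine, cysteine, valine and methionine, and the mitochondrial enzyme overlapped. The reverse held for leucine, phenylalanine, glutamate and proline, where the mitochondrial enzyme separated the ages and the cytosolic enzyme overlapped.

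Tars2, the threonyl enzyme, had signals of 3.94, 3.78 and 3.78 in young and 3.88, 2.65 and 2.88 in old muscle. Old replicate 1 lay within the young range and old replicates 2 and 3, those in row 2 of the slide, far below it. The difference was -0.70 ± 0.32 (limma adjusted p = 0.381). It was -1.07 without old replicate 1, -0.46 without old replicate 2 and 0.04 with the slide row as a block, a fit in which old replicate 1 alone stands against the young arrays. Wars2, the tryptophanyl enzyme, had signals of 1.05, 0.82 and 0.68 in young and 0.72, 0.18 and 0.03 in old muscle. The same pair of old arrays was low and old replicate 1 lay within the young range. Its difference was -0.54 ± 0.23 (limma adjusted p = 0.347), and -0.13 with the slide row as a block. The part of the slide row in these values was not tested further, since its second row held old arrays alone.

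On the probes used, the other mitochondrial members overlapped between the ages. Mars2, the methionyl enzyme, had a difference of 0.51 ± 0.33. Its signals of -2.35, -2.71 and -3.09 in young and -2.49, -2.57 and -1.55 in old muscle set old replicate 3 above and young replicate 3 below the rest. Without these arrays in turn the difference of Mars2 was 0.19 and 0.33. Cars2 differed by -0.27 ± 0.19, Aars2 by -0.12, Vars2 by -0.09, Yars2 by -0.05, Rars2 by 0.06, Hars2 by 0.09 and Iars2 by 0.15. These are the cysteinyl, alanyl, valyl, tyrosyl, arginyl, histidyl and isoleucyl enzymes of mitochondria.

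A few arrays held many of the extreme values. Of the 35 members tested, 10 (28.6%) were lowest on young replicate 3, against 14.9% of all genes. As many, 10 (28.6%), were lowest on old replicate 1, against 24.3% of all genes. Highest on old replicate 3 were 10 (28.6%), against 16.7% of all genes, and on young replicate 3 there were 7 (20.0%), against 30.2%. Among the cytosolic members 8 of 20 (40.0%) were highest on old replicate 3. Rars, Hars, Nars, Farsb, Iars2 and Mars2 were all low on young replicate 3, and Rars is the member with the largest standard error, 0.44.

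**Figure D3:**
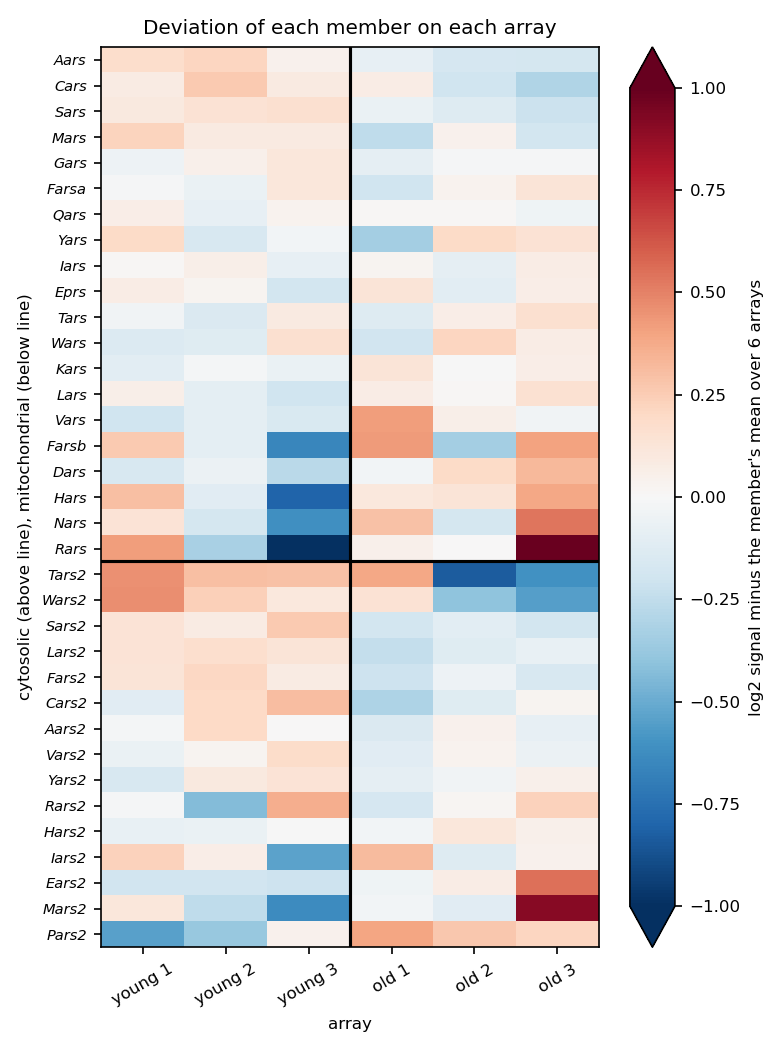
Deviation of each member's log2 signal from its own mean over the 6 arrays (colour, red above and blue below), with arrays in columns and members in rows, cytosolic above the horizontal line and mitochondrial below, ordered by difference within each compartment. Dark blue cells of Rars, Hars, Nars, Farsb, Iars2 and Mars2 fall on young replicate 3, and blue cells of Tars2 and Wars2 on old replicates 2 and 3.

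The signals summed over a compartment gave another view, in which the bright probes count most. The summed signal of the 20 cytosolic members, in multiples of the array's 75th percentile, was 550, 554 and 548 in young and 546, 531 and 550 in old muscle, a ratio of old to young of 0.984. That of the 15 mitochondrial members was 113, 114 and 115 in young and 99.98, 97.1 and 98.8 in old muscle, a ratio of 0.867. The mitochondrial sums did not overlap between the ages, and the cytosolic sums did. Without Tars2 the mitochondrial ratio was 0.896, and the sums still did not overlap. The brightest mitochondrial members in young muscle were Fars2, Lars2 and Tars2, with mean log2 signals of 5.28, 3.845 and 3.836. Their differences were -0.28, -0.29 and -0.70, while 6 of the 15 members were above 0. The sum without Fars2, Lars2 and Tars2 together was not tested, so the lower mitochondrial sum cannot be told apart from the lower signal of these bright probes. For Tars2 the other probe differed by 0.04. With each array centred on its median the ratios were 0.898 for the cytosolic and 0.791 for the mitochondrial sum, and with quantile normalization 1.03 and 0.883. The direction of the cytosolic sum therefore turned with the scaling and that of the mitochondrial sum did not.

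Of the 35 members, 7 had a pair of probes above background, and the pairs differed in several. The brighter probe was used, and the values of pairs come from a fit over all probes kept. The other probe of Iars2 had signals of 0.59, 0.71 and 0.38 in young and 0.19, -0.94 and -0.85 in old muscle. It differed by -1.09 ± 0.32 (limma adjusted p = 0.242) without overlap between the ages, while the brighter probe differed by 0.15 and overlapped. Its low values again fell on old replicates 2 and 3. The other probe of Tars2, designed to another transcript, had signals of 2.43, 2.47 and 2.66 in young and 2.48, 2.67 and 2.52 in old muscle and differed by 0.04. For Wars2 the other probe differed by 0.30 where the brighter one differed by -0.54, and for Vars2 by 0.46 where the brighter one differed by -0.09. This other probe of Vars2 had signals of -1.92, -1.79 and -2.61 in young and -1.59, -1.68 and -1.69 in old muscle. Its old arrays lay above the young without overlap, unlike those of the brighter probe. In Farsa the values were -0.02 for the brighter and 0.56 for the other probe. The pairs of Wars (0.07 and 0.16) and of Cars2 (-0.27 and -0.09) had the same sign. Pars2 had another probe that was well above background on 1 old array only and was not used.

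**Figure D4:**
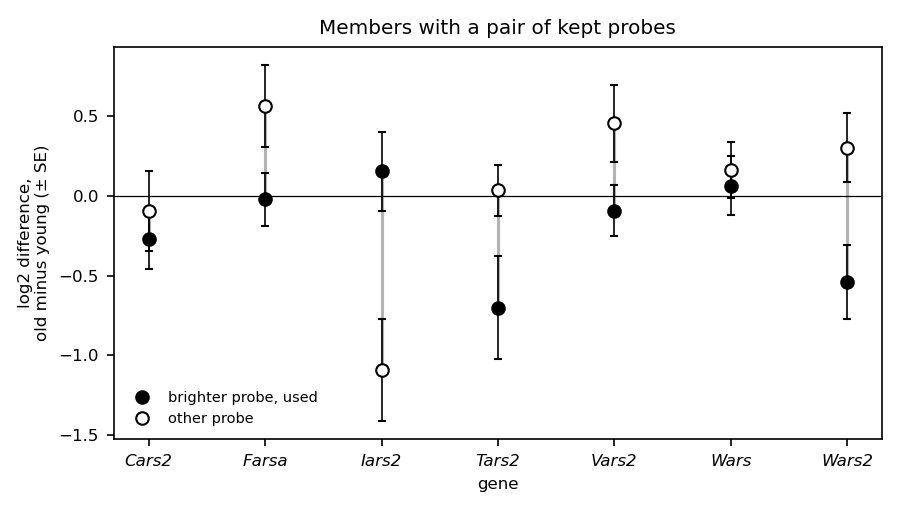
Difference between the ages (y axis, log2, old minus young, ± SE) for the brighter probe used for the gene (filled) and the other probe kept (open) of the 7 members with a pair of kept probes, on the x axis. The probes of Iars2, Tars2, Wars2, Vars2 and Farsa lie farthest apart, and those of Cars2 and Wars lie within their errors of each other.

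Promoter sequences are shown because several cytosolic synthetase genes are known targets of Atf4, which with C/EBP proteins binds elements of the form TGATGNAA. The RefSeq promoter table of build GRCm38.p6 held 27 of the 36 members, 13 cytosolic and 14 mitochondrial. The 9 without a promoter there, which were not searched, were Nars, Vars, Cars, Hars, Wars, Rars, Lars, Pars2 and Hars2. The table's window from 250 bases before to 50 after the start was searched on both strands. TGATGNAA was found in 5 cytosolic members and in 0 mitochondrial members, and in 3.97% of all 32851 promoters of the same length. The 9-base element ATTGCATCA, whose reverse complement TGATGCAAT contains TGATGCAA, overlaps that motif. It was found in Aars and Iars, and in 0.19% of all promoters. The stretch from 150 bases before to 25 after the start is printed 5′ to 3′ on the gene's strand, with matches to TGATGNAA or its reverse complement in capitals. The stretches are chr8:111033692-111033866 (Aars, plus strand), chr6:55037851-55038025 (Gars, plus strand), chr13:49681980-49682154 (Iars, plus strand), chr15:11399634-11399808 (Tars, minus strand) and chr4:129189753-129189927 (Yars, plus strand).
Aars: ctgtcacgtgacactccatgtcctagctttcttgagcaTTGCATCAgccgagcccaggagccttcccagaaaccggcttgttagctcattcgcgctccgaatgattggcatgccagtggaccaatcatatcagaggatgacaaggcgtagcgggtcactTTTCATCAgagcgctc
Gars: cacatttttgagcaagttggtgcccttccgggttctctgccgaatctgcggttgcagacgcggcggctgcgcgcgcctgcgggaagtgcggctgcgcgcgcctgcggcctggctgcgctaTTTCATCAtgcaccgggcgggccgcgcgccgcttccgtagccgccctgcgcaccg
Iars: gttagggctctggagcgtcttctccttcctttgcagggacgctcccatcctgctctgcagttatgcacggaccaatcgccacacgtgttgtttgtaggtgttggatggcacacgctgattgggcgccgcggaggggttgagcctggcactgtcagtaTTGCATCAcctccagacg
Tars: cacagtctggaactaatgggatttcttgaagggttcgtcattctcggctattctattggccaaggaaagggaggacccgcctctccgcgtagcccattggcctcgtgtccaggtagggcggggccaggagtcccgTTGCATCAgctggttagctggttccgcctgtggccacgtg
Yars: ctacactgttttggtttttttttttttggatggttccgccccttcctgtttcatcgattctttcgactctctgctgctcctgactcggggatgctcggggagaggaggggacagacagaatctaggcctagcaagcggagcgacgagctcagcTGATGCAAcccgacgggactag
In Aars the matches began 112 bases before the start and 9 bases after it. In Gars and Tars the match began 30 and 15 bases before the start, and in Iars and Yars 7 and 3 bases after it. The differences between the ages of these genes were -0.29 (Aars), -0.08 (Gars), 0.00 (Iars), 0.06 (Tars) and 0.00 (Yars). None of them passed the test, and Aars alone had old and young arrays that did not overlap. A match of letters is a description and shows no binding.

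Other elements were searched in the same windows and on both strands. The E-box CACGTG was found in Aars, Ears2, Farsb, Iars and Tars, and in 7.15% of all promoters. The Ets core CGGAAG was found in 14 of the 27 members, 6 cytosolic and 8 mitochondrial, against 16.8% of all promoters, and the longer Ets site CCGGAAGT, which overlaps it, in Farsa, Mars and Rars2, against 3.89%. The GC box GGGCGG was found in 19 members, against 35.7% of all promoters. The gamma-interferon activated site TTCNNNGAA was found in Aars, Kars and Nars2, against 8.30%, and Wars was not searched. The core TGACGT was found in Aars2, Eprs, Nars2 and Wars2, against 7.51%, and the full cAMP response element TGACGTCA in 0 members, against 1.79%. The related site TGACGCAA was found in 0 members, against 0.49%. No test was made of these shares.

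Genes that work with the synthetases were described from 7 further lists of 63 genes, 62 of them tested. None was called in either direction, against 0.254% of all genes. The scaffold proteins hold the multisynthetase complex together. Aimp1, one of them and the precursor of a secreted cytokine, had signals of 3.22, 3.68 and 4.27 in young and 4.34, 4.53 and 5.28 in old muscle. Its old arrays were all above the young, by 0.99 ± 0.35 (limma adjusted p = 0.287). Eef1e1 differed by 0.55 ± 0.32, which was 0.23 without old replicate 3, and Aimp2 by -0.29 ± 0.42, the latter with old replicate 1 at 6.50 and every other array between 7.64 and 8.06; without that array it was 0.22.

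In the list of 10 synthetase relatives and genes of editing and tRNA end processing, the median difference was -0.07, with 4 above 0 and 6 below. Pstk, the kinase that acts on seryl-tRNA on the way to selenocysteine, differed by -0.50 ± 0.19 (limma adjusted p = 0.315), and Tarsl2, a second cytosolic threonyl enzyme, by -0.34 ± 0.16 (limma adjusted p = 0.390). The arrays of the ages did not overlap for either gene. The 6 mitochondrial charging partners stayed between -0.17 (Qrsl1, a subunit of the amidotransferase that makes glutaminyl-tRNA) and 0.03, with a median of -0.08. Gatb, of the same amidotransferase, differed by -0.14 and Tsfm, the mitochondrial elongation factor, by -0.08.

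Delivery of charged tRNA to the ribosome in the cytosol is the work of the elongation factor eEF1. Eef1a1, the form found in most tissues, had signals of 4.81, 4.65 and 4.52 in young and 5.41, 5.05 and 5.37 in old muscle. Its difference was 0.62 ± 0.18 (limma adjusted p = 0.221). Eef1a2, the form of adult muscle and nerve, had 6.19, 6.16 and 6.32 in young and 6.0, 5.85 and 5.76 in old muscle, a difference of -0.36 ± 0.15 (limma adjusted p = 0.357). The arrays of the ages did not overlap for either form, and the signs were opposite. Eef1g differed by 0.71 ± 0.47, with young replicate 3 low at 4.10 as in Rars and Nars, and by 0.14 without that array.

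The sensors of uncharged tRNA and the eIF2 kinases, a list of 6, had a median of 0.05. Eif2ak4 differed by -0.36 ± 0.16 (limma adjusted p = 0.370), Eif2ak2, the kinase activated by double-stranded RNA, by -0.29 ± 0.25 and Eif2s1, the α subunit of eIF2, by 0.19 ± 0.18. The amino acid response list held Atf4 and its targets, and 21 of its 22 genes were tested. Their median was -0.01, with 10 above 0 and 11 below. Atf4 differed by 0.01, and Asns, the asparagine synthetase, by 0.38 ± 0.27, which was 0.08 without old replicate 3. Atf3, a stress-induced transcription factor, had signals of 0.38, -0.71 and -1.16 in young and 1.56, 1.56 and 4.26 in old muscle. The old arrays were all higher, old replicate 3 by far the most, and the difference of 2.96 ± 0.79 did not pass the test (limma adjusted p = 0.195). Atf5 differed by -0.40 ± 0.16 (limma adjusted p = 0.333) and Cebpg by 1.29 ± 0.74 (limma adjusted p = 0.462), which was 2.12 without old replicate 1 and 0.86 without young replicate 3. Chac1, the target farthest below 0, had signals of 7.47, 8.05 and 6.52 in young and 7.97, 5.88 and 3.21 in old muscle. Old replicate 1 lay within the young range, and the difference of -1.66 ± 1.12 (limma adjusted p = 0.527) was -2.80 without it and -0.42 without old replicate 3.

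Interferon-induced genes were included because Wars is known to be induced by interferon-γ. Their 11 members had a median of -0.04. Gbp3 differed by -0.77 ± 0.22 (limma adjusted p = 0.223) and Gbp2 by -0.60 ± 0.20 (limma adjusted p = 0.271). Both had old arrays below the young. Wars had signals of 5.04, 5.06 and 5.34 in young and 4.98, 5.39 and 5.25 in old muscle, which overlap.

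**Figure D5:**
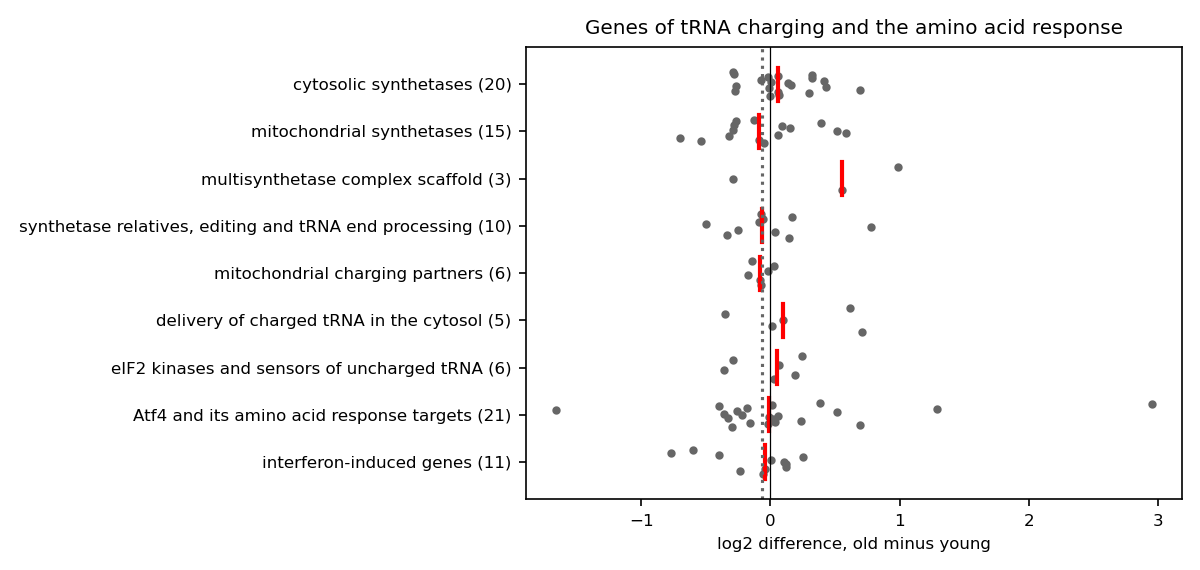
Difference between the ages (x axis, log2, old minus young) for each tested gene (grey points) of the cytosolic and mitochondrial synthetases and of the 7 further lists (rows, number tested in parentheses); red bars are list medians and the dotted line the median of all genes. The synthetase medians of 0.06 and -0.09 lie close to the line, and Atf3 and Chac1 are the points farthest out.

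The make-up of the tissue was read from marker lists, and fewer cells of a type and less RNA per cell cannot be told apart in such bulk samples. The 7 fibre markers, which define the labelled tissue, had a median difference of -0.20, all below 0 and none called, with a summed signal of 4624 to 5572 in young and 3844 to 4998 in old muscle. Of 9 macrophage markers 8 were above 0 and none called, with sums of 27.0 to 28.8 against 33.2 to 40.4. Of 4 neutrophil markers tested, S100a8 and S100a9 were called higher. Retnlg was also above 0 (3.45 ± 0.48) and Camp below (-0.40 ± 0.15), neither of them called. The sums, in which S100a8 and S100a9 weigh most, were 0.837 to 1.39 against 16.5 to 24.6, and Ngp and Ltf were not tested. All 6 fibroblast markers were below 0 and none called, with sums of 447 to 508 against 209 to 343. Of 5 Schwann cell markers Prx was called lower (limma adjusted p = 0.0429), and the sums of 23.0 to 42.6 and 23.5 to 40.3 overlapped. The 3 red blood cell markers tested summed to 194 to 325 against 79.6 to 153, none called. The 5 endothelial (18.3 to 23.6 and 13.3 to 18.6), 4 adipocyte (13.0 to 19.8 and 8.92 to 17.7), 3 satellite cell (14.1 to 14.7 and 14.3 to 16.6) and 4 lymphocyte and plasma cell markers tested (1.61 to 1.84 and 1.69 to 1.85) had overlapping sums and none called. Cd3g, Cd79a and Myf5 were not tested. The part of these differences in the values of the synthetases was not tested.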

How the data were processed

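Gastrocnemius total RNA of 3 young and 3 old mouse samples was measured on 6 arrays. The deposited intensity of each spot had been background-subtracted and spatially detrended with Agilent Feature Extraction 11.0.1.1, per the file headers, while the submitters' processing notes name version 9.5. The authors' deposited value table, also an intensity, equalled the processed signal over the array's 75th percentile, times 100 and rounded, within 1 for all 62976 spots. Its scale is therefore linear and uncentred, its direction that of the signal, and its column medians were 6, 7, 7, 9, 7 and 6 (young 1 to 3, old 1 to 3).

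Control and outlier spots (161 to 212 per array) were dropped, and log2 processed signals were averaged per probe and scaled to the 75th percentile. Of 55681 probes, 28331 matched a RefSeq symbol (GRCm38.p6) by accession. Probes well above background on at least 3 arrays were kept (28013), and a gene was its brightest kept probe. This choice, and the filter, decide which transcript stands for a gene. Ages were compared with limma 3.58.1 (R 4.3.3, lmFit and eBayes, two-sided), adjusted over 20907 genes (13846 with a symbol), and the fit was tested on simulated data. Figures were drawn with matplotlib 3.10.9 (Python 3.11.15), and tables with pandas 2.3.3.

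The members and lists were chosen with earlier results of these data known. Full values are given for any member past the threshold and for the 6 cytosolic and 6 mitochondrial members with the lowest p, and in each further list for the 3 genes with the lowest p, of which 2 are not reported here; Fars2, Rars, Nars, Kars, Mars2, Wars, second probes, Atf4, Asns and Chac1 were added after their values were seen. Alternatives changed the scaling, background correction (normexp, offset 50, on median signals, in place of the mean signals planned first), source of values, filter, probe rule, eBayes settings, array weights, replicate or slide row block and left out each array; leaving out each array for the further lists was chosen after seeing the data. All arrays shared 1 slide and 1 scan.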

Additional observations from a re-analysis of the deposited data

How the results depend on the processing

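None of the 18 alternatives called a synthetase, and the smallest adjusted p of a named member under any of them was 0.0624 (limma), for Tars2 without old replicate 1. Of 216 comparisons of the 12 named members with an alternative, 215 kept their direction and their side of the threshold. Tars2 turned to 0.0392 with the slide row as a block. The filters, the eBayes settings, the replicate block and the fit of every probe left the differences of these members unchanged, so their direction could not turn there. The mean of probes changed those of Wars2 and Tars2 alone, and the authors' values are the same signal rescaled and rounded. The count of 215 therefore overstates the number of separate checks. With every probe fitted, the probe with the lowest p stood for its gene. The other probes of Wars2 (0.30) and Tars2 (0.04), opposite in sign, were therefore not counted. The 53 genes called over the whole array became 8 without a filter, 35 with a filter on all arrays, 194 with array weights and 1 to 186 when 1 array was left out (10, 8 and 17 without young replicates 1 to 3; 186, 6 and 1 without old replicates 1 to 3). The replicate number as a block gave 5. Same-numbered young and old arrays deviated with correlations of -0.06, -0.27 and 0.03, and differently numbered ones with -0.21 to 0.35. With so few arrays these values cannot decide whether the numbers pair the samples, and nothing states that they do. The block left the cytosolic and mitochondrial medians at 0.06 and -0.09. Median centring of each array moved the median of all genes from -0.06 to -0.20. With it the cytosolic median moved from 0.06 to -0.0806 and the mitochondrial one from -0.09 to -0.23. Their difference stayed at 0.15, which was fixed in advance, since centring moves every gene by the same amount. Over leave-one-out fits the cytosolic median ran from 0.0209 to 0.12 and the mitochondrial one from -0.15 to -0.06. Differences of single members moved by over 1.5 times in places. Median centring gave 0.25 for Ears2, 0.18 for Dars, 0.16 for Vars, -0.41 for Sars and -0.40 for Mars. Normexp gave -0.14 for Aars, 0.16 for Dars, -0.11 for Cars and -0.15 for Mars. The slide row as a block gave 0.16 for Ears2, 0.13 for Dars, -0.07 for Cars and 0.57 for Vars. The mean of a gene's probes gave -0.12 for Wars2 and -0.33 for Tars2. The changes with median centring are that same shift of all genes, and those with the mean of probes come from averaging a pair of probes. The cause of the other changes was not tested. With 3 arrays per age, the standard errors of 0.143 to 0.444 limit which differences could be told from 0.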
